A study of Mus musculus with 12 samples.

Results

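In 12 mouse heart libraries that each counted 24061 gene symbols, the genes described here are 40 that encode collagens and other parts of the extracellular matrix, the enzymes that cross-link or cut it, and the TGF-beta ligands. They were picked by name from a written list and not by a rule on measured values, though earlier results of these data were known. All 40 symbols were found in the files, and all 40 passed the filter on low counts in every fit. The tables held 6 libraries of HKII+/- hearts and 6 of HKII+/+ hearts. Every animal was a male C57BL/6J mouse of 2 to 4 months on chow, and HKII+/- animals are heterozygous at the hexokinase II gene, Hk2. The labels do not say how the HKII+/- allele was made, whether it is confined to a tissue, or how much of each heart, atria included, was taken. A note of the submitters calls 1 library of each genotype a potential outlier, HKII+/- replicate 11 and HKII+/+ replicate 13, so each comparison is given over all 12 libraries and over the 10 unmarked ones, 5 per genotype.

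The matrix of the heart is a mesh of fibrillar collagens, chiefly types I and III, laid down by fibroblasts around bundles of muscle cells. Basement membranes built on collagen IV wrap each cardiomyocyte and capillary, while elastin and fibrillin give recoil to vessels, valves and the atrial wall. Lysyl oxidases cross-link the fibres, small leucine-rich proteoglycans set their thickness, matrix metalloproteinases cut them, TIMPs hold those proteases in check, and TGF-beta drives fibroblasts to make more matrix.

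Counts per library summed to between 17263209 and 51556592, and levels are given as CPM, a library's count relative to its total after TMM scaling. The members together took 0.458% to 0.706% of all counts in the 10 unmarked libraries, 2.46% in HKII+/- replicate 11 and 1.05% in HKII+/+ replicate 13. Hk2 checked the labels: its level was 273, 267, 312, 256 and 354 CPM in the unmarked HKII+/- libraries, against 471, 542, 522, 524 and 486 CPM in the unmarked HKII+/+ libraries, with no overlap. The marked libraries held 568 CPM of Hk2 in HKII+/- replicate 11 and 653 CPM in HKII+/+ replicate 13. At this TMM scaling the marked HKII+/- library thus lay above every unmarked HKII+/+ library and below HKII+/+ replicate 13. The difference of mean log2 CPM of Hk2 was -0.81 without the marked libraries (exact two-sided permutation test, p = 0.00794, the smallest 5 against 5 can give) and -0.71 with them (exact permutation p = 0.0130). Scaled by library totals alone, the difference over all 12 libraries was -0.70 (exact permutation p = 0.00216). That p is the smallest these libraries can give, so on totals the genotypes did not overlap in Hk2, marked libraries included. The labelled tissue was checked on the muscle genes Myl2, Myl3, Myh6, Mb and Ckm, which were detected in every library. Myl2, the ventricular myosin light chain, stood at 4219 to 6705 CPM in the unmarked libraries, at 2260 CPM in HKII+/- replicate 11 and at 5066 CPM in HKII+/+ replicate 13. In HKII+/- replicate 11 Mb (6557 CPM) and Ckm (309 CPM) also lay below every unmarked library. In HKII+/+ replicate 13 Ckm (755 CPM) lay below them too, while Mb (12440 CPM) lay within their range. Myh6, which mouse atria express too, was at 125900 CPM in HKII+/- replicate 11 and 130900 CPM in HKII+/+ replicate 13. Its unmarked values ran from 34310 to 48160 CPM. Myl3 was at 12330 and 18490 CPM in the marked libraries, against 3871 to 5553 CPM in the unmarked ones.

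Levels were compared between genes per kilobase of annotated exon, as the mean over unmarked libraries. Sparc, a collagen-binding matricellular protein, had the highest level, at 111.5 ± 9.68 CPM per kilobase in HKII+/- hearts and 111.7 ± 12.7 in HKII+/+ hearts (SD, n = 5 each). Both collagen IV chains of the basement membrane followed, with Col4a1 at 78.9 ± 5.83 in HKII+/- and 81.1 ± 9.27 in HKII+/+ hearts, and Col4a2 at 75.8 ± 6.34 in HKII+/- and 79.7 ± 7.63 in HKII+/+ hearts. Decorin (Dcn), which coats collagen fibrils, lay between them at 78.7 ± 10.9 CPM per kilobase in HKII+/- and 79.7 ± 5.75 in HKII+/+ hearts. Those 3 neighbours did not differ beyond their spread. Connective tissue growth factor (Ctgf) came next and was the most variable of the leading genes, at 73.8 ± 34.3 in HKII+/- and 62.0 ± 18.9 in HKII+/+ hearts. At the other end stood tenascin C (Tnc), a glycoprotein of developing and injured tissue, with 0.269 ± 0.0668 CPM per kilobase in HKII+/- and 0.328 ± 0.0970 in HKII+/+ hearts. Lysyl oxidase (Lox) at 1.57 ± 0.540 and Timp1 at 2.24 ± 0.732 CPM per kilobase in HKII+/- hearts were the next lowest, with 1.74 ± 0.410 and 2.44 ± 0.558 in HKII+/+ hearts. With the longest transcript in place of all exons, Sparc kept rank 1 and Tnc rank 40, while biglycan (Bgn) moved to rank 2, against rank 8 with all exons, and Col4a1 to rank 5, against rank 2.

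The chains of a shared collagen were in steady proportion across the unmarked libraries. Collagen I is built from chains of Col1a1 and Col1a2, and the ratio of their CPM, which is uncorrected for length and is read only across libraries, was 0.910 to 1.01 in HKII+/- and 0.854 to 0.981 in HKII+/+ hearts. The Col4a1 to Col4a2 ratio was 1.12 to 1.26 in HKII+/- and 1.13 to 1.18 in HKII+/+ hearts. In HKII+/- replicate 11 and HKII+/+ replicate 13 the Col1a1 to Col1a2 ratio was 1.44 and 1.22, above every unmarked library, and the Col4a1 to Col4a2 ratio was 1.39 and 1.31. Col4a1 (chromosome 8 from 11198423 to 11312826, minus strand, GRCm38) and Col4a2 (11312805 to 11449287, plus strand) lie head to head and share 22 annotated bases. Col3a1 and Col5a2, 2 fibrillar collagen genes, are neighbours on chromosome 1 with 24614 bases between them, Col6a2 and Col6a1 lie 85161 bases apart on chromosome 10, and Dcn and lumican (Lum) 46984 bases apart on the same chromosome.

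RefSeq start-site windows on GRCm38.p6 were available for 25 of the 40 members, which had 29 windows. The 250 bases before the start are shown, 5′ to 3′ on the gene's strand, for the member with the steepest relation to Myl7 (Fmod), for a member low in both marked libraries (Bgn), for the fibrillar collagen with the widest range over the libraries (Col3a1), and for a ligand whose slope on Myl7 was near 0 (Tgfb1). Capitals mark a GC box, GGGCGG or its reverse complement CCGCCC, or a TATA box, TATAAA.
Fmod, chr1:134037004-134037253, plus strand: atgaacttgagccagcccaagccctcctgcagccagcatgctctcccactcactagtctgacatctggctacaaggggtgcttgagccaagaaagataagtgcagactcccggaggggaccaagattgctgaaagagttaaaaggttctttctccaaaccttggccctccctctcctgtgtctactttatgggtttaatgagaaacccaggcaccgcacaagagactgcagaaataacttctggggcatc
Bgn, chrX:73483351-73483600, plus strand: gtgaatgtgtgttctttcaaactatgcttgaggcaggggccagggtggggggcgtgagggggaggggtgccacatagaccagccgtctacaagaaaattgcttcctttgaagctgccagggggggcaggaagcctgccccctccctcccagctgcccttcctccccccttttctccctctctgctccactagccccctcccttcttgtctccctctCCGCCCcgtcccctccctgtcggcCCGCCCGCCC
Col3a1, chr1:45311288-45311537, plus strand: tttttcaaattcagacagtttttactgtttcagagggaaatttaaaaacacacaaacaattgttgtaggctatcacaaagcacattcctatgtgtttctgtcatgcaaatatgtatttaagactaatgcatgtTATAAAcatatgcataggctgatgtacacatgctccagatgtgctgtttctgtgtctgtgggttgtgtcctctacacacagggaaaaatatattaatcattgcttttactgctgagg
Tgfb1, chr7:25686752-25687001, plus strand: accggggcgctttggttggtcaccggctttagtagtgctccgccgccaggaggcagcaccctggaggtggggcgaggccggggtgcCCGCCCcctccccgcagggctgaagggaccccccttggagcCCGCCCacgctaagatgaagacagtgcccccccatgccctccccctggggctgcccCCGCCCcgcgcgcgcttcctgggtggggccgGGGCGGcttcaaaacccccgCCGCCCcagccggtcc
These 250-base stretches held 51.2% G and C for Fmod, 64.4% for Bgn, 35.2% for Col3a1 and 75.2% for Tgfb1. In every window the 250 bases before the start were searched on both strands. A GC box stood in 16 of 29 member windows, against 32.7% of all 32851 mouse windows. A TATA box stood in 5 of 29 member windows, against 12.4% of all windows, and a CCAAT box, CCAAT, in 9 of 29, against 33.8%. The Fmod stretch held none of the 3 motifs, and such matches describe letters and do not show binding.

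No member passed the test between the genotypes. Over all 12 libraries edgeR's quasi-likelihood test with Benjamini-Hochberg adjustment called 0 of 40 members and 0 of 14107 genes (0.0%), with 37 genes and 0 members at an unadjusted p under 0.05 (0.262% of genes). DESeq2 also called 0 genes over the 12 libraries, and limma with sample quality weights called 2, neither of them a member. In edgeR's 12-library fit Hk2 itself was not called (log2 fold change -0.66 ± 0.19 SE, unadjusted p = 0.00542). That fit thus did not detect the difference in the heterozygous gene, which limits what its 0 calls among the members can show. Over the 10 unmarked libraries the test called 1 of 14139 genes (0.00707%), which was Hk2 (log2 fold change -0.80 ± 0.09 SE, adjusted p = 0.0165), and 0 of 40 members. There, 396 genes (2.8%) and 0 members had an unadjusted p under 0.05, and DESeq2 called 3 genes, again with 0 members.

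The sign of the member differences turned on the marked libraries. With all 12 libraries 27 members were higher in HKII+/- hearts and 13 lower, and 6979 of 14107 genes tested were higher. The median log2 fold change was 0.12 over the members and -0.001 over all genes tested. Without the marked libraries 6 members were higher and 34 lower, and 6682 of 14139 genes were higher. The median was then -0.06 over the members and -0.005 over all genes. That second split itself rested on a few hearts: 23 members were higher without HKII+/+ replicate 14, 22 without HKII+/- replicate 22, 12 without HKII+/- replicate 19, 10 without HKII+/+ replicate 15, and 28 with log2 Myl7 CPM as a covariate. Without HKII+/- replicate 11 alone, 15 of 40 members were higher over the remaining libraries.

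Fibrillar collagens showed this swing. Col3a1, the chain of collagen III, stood at 376, 394, 244, 322 and 218 CPM in the unmarked HKII+/- libraries, against 456, 349, 367, 266 and 233 CPM in the unmarked HKII+/+ libraries. The 2 ranges overlapped. HKII+/- replicate 11 held 6294 CPM of Col3a1 and HKII+/+ replicate 13 held 1757 CPM, both above every unmarked library. The log2 fold change of Col3a1 was 1.19 with all 12 libraries (95% interval -0.83 to 3.22) and -0.10 without the marked ones (-0.54 to 0.33), and it passed the test in neither fit. All 5 fibrillar collagens were higher in HKII+/- hearts with 12 libraries and all 5 lower with 10, with medians of 0.86 and -0.07. Leaving out HKII+/- replicate 11 alone put the Col3a1 fold change at -0.89, and leaving out HKII+/+ replicate 13 alone put it at 2.00.

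Elastin (Eln), the rubber-like core of elastic fibres, gave the largest fold change of the members in each fit, with opposite signs. It stood at 139, 134, 58.5, 98.6 and 52.6 CPM in the unmarked HKII+/- libraries, against 190, 155, 120, 74.9 and 81.1 CPM in the unmarked HKII+/+ libraries. The 3 lowest values were HKII+/- replicates 22 and 19 and HKII+/+ replicate 18, so the groups overlapped. The log2 fold change was -0.36 without the marked libraries (95% interval -1.06 to 0.33) and 1.22 with them (-0.83 to 3.27), and neither passed the test. The other members of the elastic fibres, fibrillin 1 (Fbn1) and microfibril protein Mfap5, were lower in HKII+/- hearts in both fits, each with an interval that held 0.

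From each remaining group the member with the largest fold change over the 10 unmarked libraries is given, a choice made after the values were seen. Col18a1, which yields endostatin, had a log2 fold change of -0.27 (95% interval -0.87 to 0.32) over 10 libraries and 0.69 over 12. Fibromodulin (Fmod), a proteoglycan of collagen fibrils, differed by -0.29 (-0.99 to 0.42), Tnc by -0.29 (-0.79 to 0.22) and Lox, an enzyme that cross-links collagen and elastin, by -0.15 (-0.66 to 0.36) over the 10 libraries. Timp1, an inhibitor of matrix metalloproteinases, differed by -0.14 (-0.65 to 0.36), Tgfb2 by -0.12 (-0.32 to 0.09) and Col14a1, a fibril-associated collagen, by -0.11 (-0.62 to 0.39). Over all 12 libraries Tnc (0.13), Timp1 (0.082) and Col14a1 (0.38) had the opposite sign, while Fmod (-0.074), Lox (-0.12) and Tgfb2 (-0.090) kept theirs. With 12 libraries the largest fold changes were those of Col6a1 (0.76) among collagens VI and XIV, Pi16 (0.31) among proteases and inhibitors and Tgfb1 (0.16) among the ligands. None of these members passed edgeR's test in either fit. Over 10 libraries the interval for Tgfb2 excluded a change of more than 0.32 on the log2 scale in either direction, while those for Fmod and Col18a1 left room for much larger ones. Tgfb1, a ligand stored in the matrix in latent form, had the tightest level of its group, 26.02 ± 0.788 CPM in unmarked HKII+/- hearts and 25.3 ± 2.29 CPM in unmarked HKII+/+ hearts (SD, n = 5 each).

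**Figure D1:**
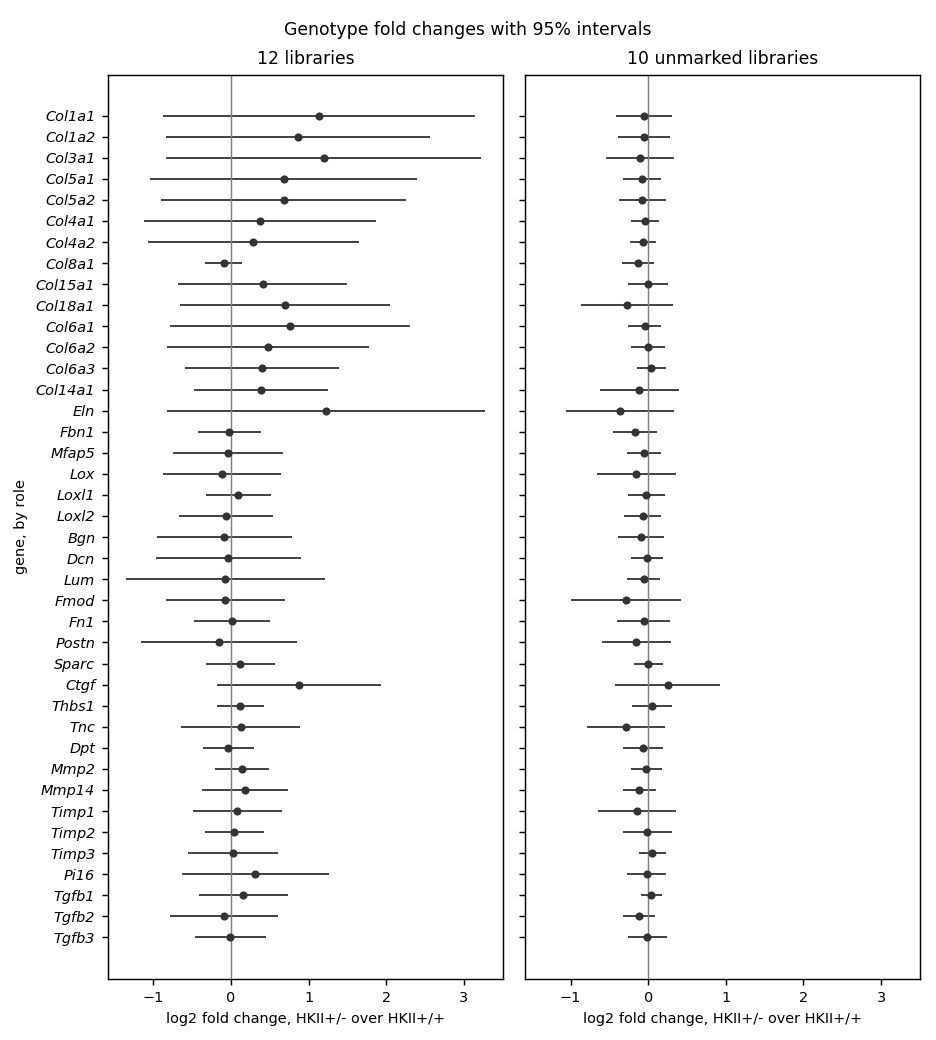
Log2 fold change of HKII+/- over HKII+/+ hearts for the 40 members (points, with 95% intervals as lines), over all 12 libraries (left) and over the 10 unmarked libraries (right), on the same horizontal scale. Every interval holds 0, and the intervals of the fibrillar collagens and Eln are several times wider with the marked libraries.

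Ctgf, a matricellular protein induced by TGF-beta, had the smallest p of the members over 12 libraries. It stood at 335, 235, 99.4, 261 and 124 CPM in the unmarked HKII+/- libraries, against 205, 260, 151, 139 and 132 CPM in the unmarked HKII+/+ libraries, and the marked libraries held 990 CPM in HKII+/- replicate 11 and 228 CPM in HKII+/+ replicate 13. Both the highest and the lowest unmarked values were HKII+/- libraries. Its log2 fold change was 0.87 over 12 libraries (95% interval -0.18 to 1.93, unadjusted p = 0.0974 in edgeR's test, not called after adjustment) and 0.25 over the 10 unmarked ones (-0.43 to 0.93, unadjusted p = 0.433). Of its annotated exon bases 23.2% are shared with Gm15270, and the strand setting of the counting is not given in the sources used here, so reads of that stretch cannot be assigned between them. The same limit holds for 21.3% of the exon bases of Timp3 (shared with Syn3), 20.1% of Fbn1 (Gm9913) and 12.4% of Tgfb3.

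Other genes of the matrix and its pathways gave no call between genotypes either. Of 93 listed genes, 91 were tested over 10 libraries and 0 were called, among 11 other collagens, 10 laminins, nidogens and perlecan, 27 other glycoproteins and proteoglycans, 15 folding and processing enzymes, 13 TGF-beta receptors and Smads, and 15 receptors and other proteases. The median log2 fold change of these lists lay between -0.06 (other collagens) and 0.05 (laminins, nidogens and perlecan) over these 10 libraries. Over all 12 libraries 0 were called too, and the other collagens had the opposite sign, with a median of 0.81 and 11 of 11 higher in HKII+/- hearts.

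Levels of many members in the marked libraries lay outside those of the other hearts, in both directions and mostly in the same genes. In both HKII+/- replicate 11 and HKII+/+ replicate 13, 17 of 40 members lay above all 10 unmarked libraries and 11 lay below all of them. The same held for 32.1% and 38.0% of the 14107 genes, so most genes moved in these libraries and the members' counts are read against that. HKII+/- replicate 11 alone stood above all unmarked libraries for 24 members (39.9% of genes) and below for 11 (45.1%), and HKII+/+ replicate 13 alone above for 17 (36.9%) and below for 13 (42.6%).

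The members that were high in both marked libraries were all 5 fibrillar collagens, Col4a1, Col4a2, Col15a1, Col18a1, the 3 collagen VI chains, Eln, Loxl1, Sparc, Pi16 and Tgfb1. Against the median of the unmarked libraries of the same genotype, the level of Eln was 21.4 times as high in HKII+/- replicate 11 and 4.07 times as high in HKII+/+ replicate 13. The matching ratios were 19.5 and 5.04 for Col3a1, 18.6 and 5.28 for Col1a1, and 8.17 and 5.06 for Col4a1. Each of these genes was thus raised more in HKII+/- replicate 11 than in HKII+/+ replicate 13. Sparc moved less, with ratios of 2.10 and 1.41.

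The members that were low in both marked libraries were 3 of the 4 small leucine-rich proteoglycans, Bgn, Dcn and Lum, with Mfap5, Lox, Loxl2, Fn1, Postn, Timp3, Tgfb2 and Tgfb3. Lum, a keratan sulphate proteoglycan that spaces collagen fibrils, stood at 3.40 CPM in HKII+/- replicate 11 and 6.16 CPM in HKII+/+ replicate 13, against 45.5 to 68.1 CPM over the 10 unmarked libraries. Dcn held 78.0 and 104.5 CPM in the marked libraries, against 356 to 514 CPM in the unmarked ones. Periostin (Postn), a matricellular protein of fibroblasts, was at 10.4 and 12.0 CPM in them, and its unmarked values ran from 36.3 to 76.4 CPM. Most collagens and 3 of the 4 proteoglycans therefore went opposite ways in the same libraries. The fourth proteoglycan, Fmod, was at 22.2 CPM in HKII+/- replicate 11, and at 8.53 CPM in HKII+/+ replicate 13. The first lay within the unmarked range of its genotype, and the second was 0.408 times the unmarked HKII+/+ median and below the lowest unmarked HKII+/+ value of 16.8 CPM, though above the 6.00 CPM of HKII+/- replicate 22. Col8a1, a network collagen, hardly moved, with ratios of 1.09 and 1.01.

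The log2 ratios of the 40 members in the 2 marked libraries ran together (Spearman's rho 0.969 across genes, which are not independent and share library and depth within each ratio). They ran with the GC content of the longest transcript as well, with rho of 0.707 for HKII+/- replicate 11 and 0.704 for HKII+/+ replicate 13, and less with its length (0.397 and 0.392). The 17 members high in both had a median GC content of 56.4% (49.6% to 61.0%), and the 11 low in both 46.9% (36.3% to 53.5%). The part of GC content in these levels was not tested. Marker genes of other tissue also stood apart: the summed level of 7 airway and alveolar markers was 279 CPM in HKII+/- replicate 11, against 0.313 to 1.78 CPM in the other 11 libraries. That sum came from 5 of them, Cyp2f2 (191 CPM), Wfdc2, Scgb1a1, Scgb3a2 and Sftpa1, while the alveolar marker Sftpc had 0 counts in HKII+/- replicate 11 and Sftpb 4 counts, a level of 0.170 CPM within the range of the other libraries. Adipocyte markers summed to 1334 CPM in HKII+/- replicate 11 and 2.95 CPM in HKII+/+ replicate 13, against 1.39 to 259 CPM in the unmarked libraries. The 6 fibroblast markers, none of them a member, did not move together. Gsn, an actin-severing protein that many cell types make, was at 6308 CPM in HKII+/- replicate 11 and 3850 CPM in HKII+/+ replicate 13, against 1211 to 2009 CPM in the unmarked ones. Pdgfra was at 33.2 and 38.6 CPM in the marked libraries, against 43.8 to 67.4 CPM, and Ddr2 at 24.2 and 22.7 CPM, against 40.1 to 58.1 CPM, both below every unmarked library. Tcf21, Lamc3 and Pdgfrl lay above the unmarked libraries in HKII+/- replicate 11 and within their range in HKII+/+ replicate 13. The part of those markers in the members' levels was not tested.

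**Figure D2:**
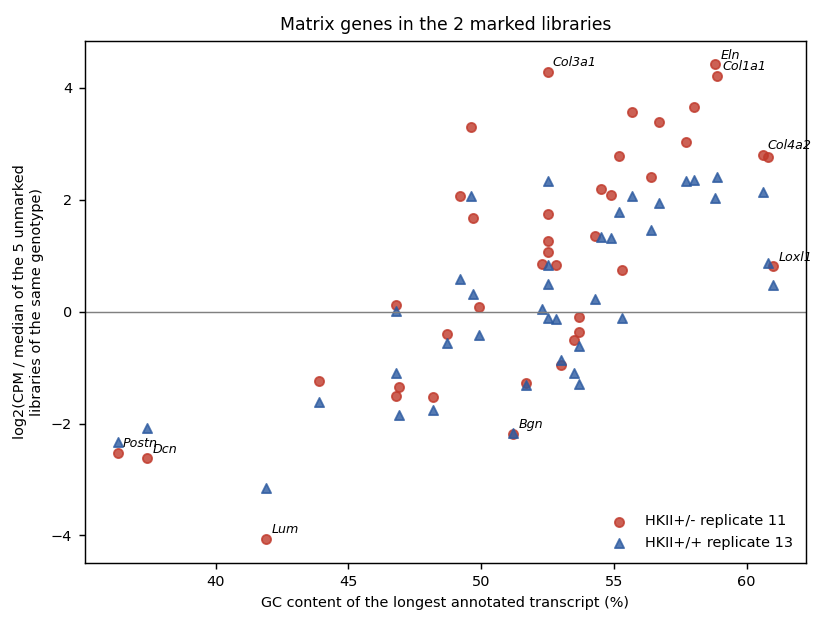
Log2 ratio of each member's CPM in HKII+/- replicate 11 (circles) and HKII+/+ replicate 13 (triangles) to the median of the 5 unmarked libraries of the same genotype, against the GC content of its longest annotated transcript in percent. Lum, Dcn, Postn and Bgn lie lowest, and Eln, Col3a1 and Col1a1 highest, with ratios of 21.4, 19.5 and 18.6 in HKII+/- replicate 11.

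**Figure D3:**
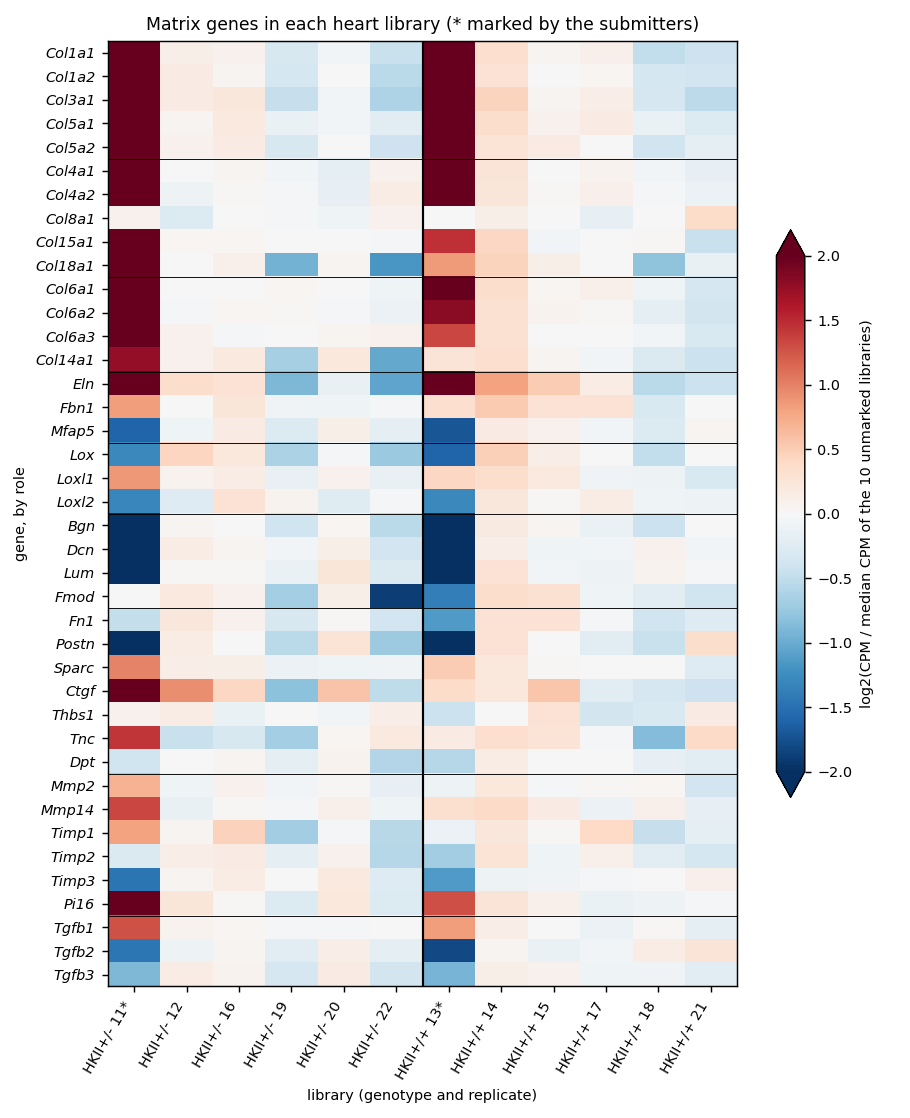
Log2 ratio of each member's CPM to its median over the 10 unmarked libraries, by library (HKII+/- on the left, HKII+/+ on the right, marked libraries starred) and by role. The colour scale ends at 2 in both directions; the marked libraries stand out in both genotypes, and HKII+/- replicates 19 and 22 are low for Col18a1, Col14a1, Eln, Lox and Fmod.

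The hearts also differed in how much atrial RNA they held. Myl7, the regulatory myosin light chain of atrial muscle, stood at 681, 648, 19.1, 903 and 0.469 CPM in HKII+/- replicates 12, 16, 19, 20 and 22, against 608, 746, 351, 652 and 230 CPM in HKII+/+ replicates 14, 15, 17, 18 and 21. HKII+/- replicates 19 and 22 thus stood apart from the other 8 unmarked hearts, and no HKII+/+ heart was as low. The mean log2 CPM of Myl7 did not pass the test between genotypes (difference -2.54 over 10 libraries, exact two-sided permutation p = 0.405; -1.85 over 12 libraries, exact permutation p = 0.444). In whole tissue, fewer cells of a type and less RNA per cell cannot be told apart.

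Members were fitted against log2 Myl7 CPM over the 10 unmarked libraries with genotype in the model, so that a slope is the log2 change per doubling of Myl7 CPM. Of the 40 members, 11 were called and all 11 had positive slopes. Over all genes 1215 of 14138 were called (8.59%), 836 with a positive slope (5.91%) and 379 with a negative one (2.68%). At an unadjusted p under 0.05 there were 21 members, all positive, against 23.7% of genes in either direction. Slopes were positive for 34 of the 40 members and for 7306 of the 14138 genes, with a median of 0.04 over the members and 0.001 over all genes.

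Of the 4 small leucine-rich proteoglycans, 3 were called with a positive slope on Myl7. Fmod was at 25.5, 23.7, 13.9, 24.1 and 6.00 CPM in HKII+/- replicates 12, 16, 19, 20 and 22, against 28.3, 27.5, 20.9, 19.3 and 16.8 CPM in HKII+/+ replicates 14, 15, 17, 18 and 21. Its lowest values were those of the 2 hearts with least Myl7, and the third lowest was that of HKII+/+ replicate 21, which had the least Myl7 of its genotype. The slope of Fmod was 0.19 ± 0.02 (SE; adjusted p = 0.000327), rank 25 by p of all genes tested. Fmod lies on chromosome 1 from 134037254 to 134048277 on the plus strand of GRCm38, and the sequence before its start is given above. Dcn (slope 0.045 ± 0.009, adjusted p = 0.0102) and Bgn (0.057 ± 0.016, adjusted p = 0.0490) were called too, while Lum was not (0.040 ± 0.012, adjusted p = 0.0583). The call of Bgn was lost with DESeq2's size factors (adjusted p = 0.0524).

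Of the member collagens, a fibril-associated and a basement membrane one were called. Col14a1 stood at 34.0, 36.7, 20.2, 37.2 and 15.7 CPM in HKII+/- replicates 12, 16, 19, 20 and 22, against 40.5, 33.3, 31.0, 26.3 and 23.9 CPM in HKII+/+ replicates 14, 15, 17, 18 and 21. Its slope was 0.12 ± 0.02 (adjusted p = 0.00339). Col18a1 stood at 39.9, 42.4, 20.6, 41.3 and 17.6 CPM in the same HKII+/- libraries, against 54.0, 42.8, 39.4, 22.8 and 35.8 CPM in the HKII+/+ ones, with a slope of 0.12 ± 0.03 (adjusted p = 0.0292). HKII+/+ replicate 18 was low in Col18a1, Eln and Col1a1 although its Myl7 was high. It also held 0 counts of Bmp10, a ligand made in atrial muscle, which stood at 130 to 204 CPM in the 7 other hearts outside HKII+/- replicates 19 and 22.

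The other called members were matricellular proteins, inhibitors and a ligand. Dermatopontin (Dpt), which binds decorin and TGF-beta, had a slope of 0.059 ± 0.010 (adjusted p = 0.00582), and Ctgf one of 0.13 ± 0.03 (adjusted p = 0.0378). Timp2 rose by 0.065 ± 0.016 per doubling of Myl7 (adjusted p = 0.0275), Timp3 by 0.033 ± 0.009 (adjusted p = 0.0438) and Pi16, a marker of adventitial fibroblasts, by 0.047 ± 0.013 (adjusted p = 0.0463). Tgfb3 had a slope of 0.054 ± 0.011 (adjusted p = 0.0104), while Tgfb1 (0.005 ± 0.010) and Tgfb2 (0.021 ± 0.014) did not pass the test. The members just outside the threshold were Lox (slope 0.097 ± 0.027, adjusted p = 0.0501), Col1a2 (0.063 ± 0.019, adjusted p = 0.0580) and Eln (0.13 ± 0.04, adjusted p = 0.0604), and those just inside it were Bgn and Pi16.

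None of the member chains of collagen IV (Col4a1, Col4a2) or collagen VI passed the test against Myl7. Col4a1 stood at 596, 619, 574, 522 and 633 CPM in the unmarked HKII+/- libraries, against 713, 591, 622, 572 and 528 CPM in the HKII+/+ libraries, and the heart with least Myl7 had the highest value of its genotype. The slope of Col4a1 was -0.008 (95% interval -0.036 to 0.019) and that of Col4a2 -0.018 (-0.042 to 0.005). Among the collagen VI chains, which form beaded microfibrils next to basement membranes, slopes lay between 0.002 for Col6a3 (-0.029 to 0.033) and 0.013 for Col6a2 (-0.023 to 0.049). The fibrillar collagens had slopes of 0.03 (Col5a1) to 0.08 (Col3a1), with 4 of 5 at an unadjusted p under 0.05 and 0 called.

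**Figure D4:**
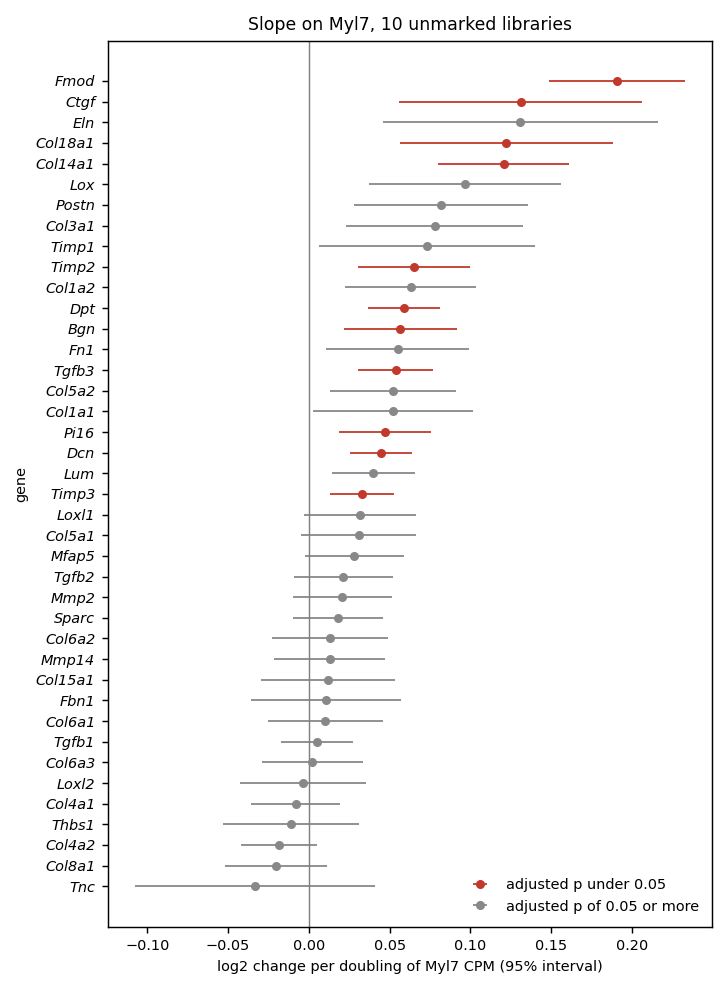
Slope of each member on log2 Myl7 CPM over the 10 unmarked libraries, with genotype in the fit (points; lines are 95% intervals), in order of size. The 11 called members are red, from Fmod at 0.19 to Timp3 at 0.03, and 6 members have slopes below 0.

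Both hearts with little Myl7 lay below all 8 other unmarked hearts for 12 members: Col18a1, Col14a1, Eln, Lox, Lum, Fmod, Postn, Ctgf, Timp1, Pi16, Tgfb2 and Tgfb3. The same held for 8.38% of the 14107 genes. They lay above all 8 others for 0 members, against 8.0% of genes. The calls rested on those hearts. Without HKII+/- replicates 19 and 22, Myl7 ran only from 230 to 903 CPM, and the fit called 0 members and 12 genes. In that fit the slopes of 9 of the 40 members changed sign, among them Bgn (-0.0086) and Timp3 (-0.071), and the others kept theirs. Without HKII+/- replicate 22 alone the fit called 2 members, Ctgf and Tgfb3, and 207 genes. It called 5 members without HKII+/- replicate 12, 16 or 20, 6 without HKII+/- replicate 19 and 7 without HKII+/+ replicate 17. With all 12 libraries it called 0 members and 66 genes. With log2 Bmp10 CPM in place of Myl7, chosen after seeing the data, it called 5 members, Col5a2, Col18a1, Lox, Bgn and Postn, and 133 genes. Some other settings raised the count of members called. Without HKII+/+ replicate 14, 5 members gained a call and 0 lost one, and without HKII+/+ replicate 18, 6 gained and 1 lost a call. With DESeq2 6 gained a call and 0 lost one.

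**Figure D5:**
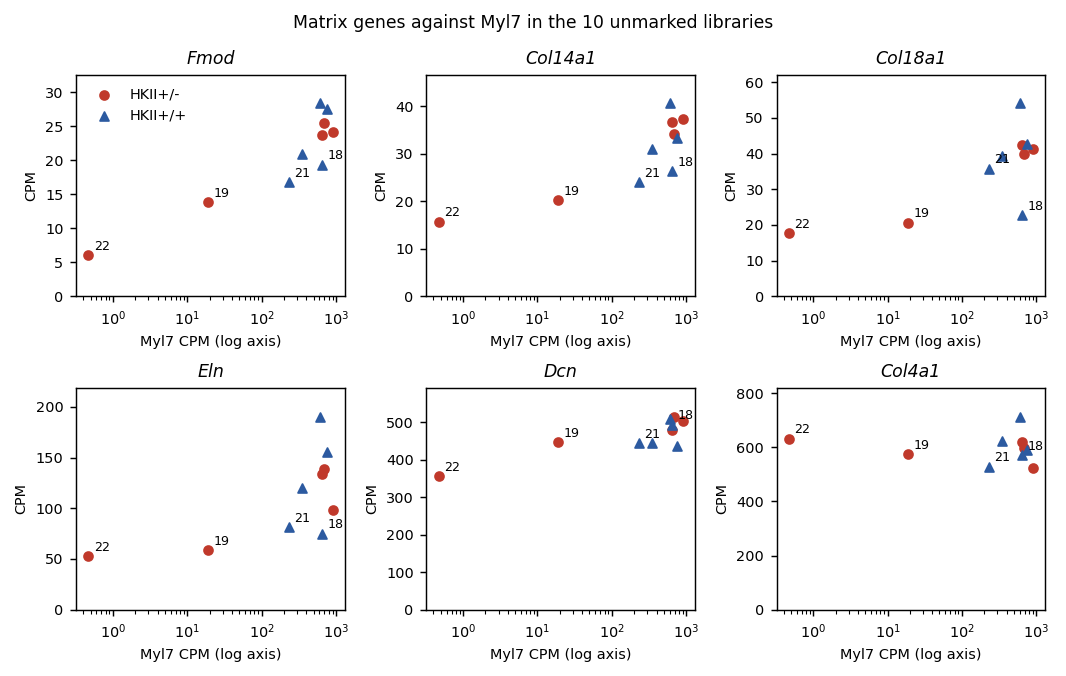
CPM of Fmod, Col14a1, Col18a1, Eln, Dcn and Col4a1 against CPM of Myl7 on a log axis in the 10 unmarked libraries, HKII+/- as circles and HKII+/+ as triangles, with replicates 18, 19, 21 and 22 numbered. HKII+/- replicates 19 and 22, at 19.1 and 0.469 CPM of Myl7, hold the lowest Fmod, Col14a1, Col18a1 and Eln levels, but not the lowest Col4a1.

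Markers of several other cell types moved with Myl7. Adipocyte markers summed to 3.83 CPM in HKII+/- replicate 19 and 1.39 CPM in HKII+/- replicate 22, against 22.1 to 259 CPM in the other 8 unmarked hearts, and all 5 were called with a positive slope. Mesothelial markers summed to 41.5 and 29.2 CPM in those hearts, against 46.6 to 99.9 CPM in the others, with 4 of 5 called, and smooth muscle markers to 460 and 439 CPM, against 487 to 804 CPM, with 4 of 6 called. Fibroblast markers were called in 3 of 6 cases and summed to 1720 and 1304 CPM, against 1562 to 2155 CPM, most of it Gsn (1603 and 1211 CPM). The ventricular list, whose sum is mostly Myh6, went the other way, with 4 of 5 called with a negative slope and sums of 69600 and 75280 CPM, against 54050 to 65660 CPM. Valve and cartilage markers were called in 2 of 6 cases, Schwann cell markers in 2 of 5 and airway markers in 1 of the 2 tested, all positive. None of the 5 endothelial, 5 pericyte or 5 tested macrophage markers was called. The part of these cell types in the members' slopes was not tested.

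Other matrix genes were read against the 5.91% of all genes called with a positive slope and the 2.68% called with a negative one. Of 11 other collagens tested 3 were called, all positive, and of 27 other glycoproteins and proteoglycans 9, all positive. Among 15 folding and processing enzymes 1 was called, among 13 TGF-beta receptors and Smads 3, and among 15 receptors and other proteases 1, all positive. For the folding enzymes and for the receptors and proteases, 1 call in 15 is near the share over all genes. Of the 10 laminins, nidogens and perlecan, 0 had a positive and 1 a negative call. Taking the 2 smallest p-values of each list, Col4a6, a collagen IV chain of smooth muscle basement membranes, had a slope of 0.23 ± 0.03 (adjusted p = 0.00136) and Col12a1, a fibril-associated collagen, one of 0.11 ± 0.02 (adjusted p = 0.0220). Col4a6 stood at 3.25 and 1.94 CPM in HKII+/- replicates 19 and 22, against 5.19 to 11.1 CPM in the other unmarked hearts. Comp (0.22 ± 0.03, adjusted p = 0.00318), a cartilage and tendon protein, and Efemp1 (0.16 ± 0.02, adjusted p = 0.00112), a fibulin, had slopes close to that of Fmod. Lama5, a laminin chain of vascular basement membranes, was called with a slope of -0.056 ± 0.010 (adjusted p = 0.00844), while Hspg2, perlecan, was not (adjusted p = 0.0812). Loxl3 (0.060 ± 0.015), Tgfbi (0.062 ± 0.015), Smad6 (0.055 ± 0.015) and the collagen receptor Ddr1 (0.045 ± 0.010) were called, with adjusted p of 0.0273, 0.0273, 0.0459 and 0.0211. Pcolce (0.031 ± 0.012, adjusted p = 0.133) and Mmp3 (0.074 ± 0.022, adjusted p = 0.0582) were not.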

How the data were processed

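RNA of 12 heart samples, 6 HKII+/- and 6 HKII+/+, was poly(A)-selected and sequenced from a single end (100 nt), per the labels' protocols. The submitters' processing notes name STAR 2.4.0, featureCounts 1.4.4 and the builds mm10 and GRCm38. The authors deposited raw whole-number counts, 1 table per library with a row per symbol, and no normalised values. For the annotation release and the strand setting, the entry is: not given in the sources used here. Groups and replicate numbers came from the sample titles. Nothing states that titles are separate animals, so hearts counted above are heart samples, and p-values measure the spread between these samples.

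Counts were scaled with TMM factors (0.760 to 1.09) and tested with edgeR 4.0.16 in R 4.3.3 (glmQLFit and glmQLFTest, filterByExpr with a minimum count of 10, Benjamini-Hochberg adjustment over all genes tested at 0.05), over 12 libraries and over the 10 unmarked ones, and on log2 Myl7 CPM with genotype in the fit, leaving Myl7 out of the counts of genes called. CPM came from the 12-library scaling. Intervals are 95%. Exon lengths, GC content and coordinates came from GENCODE vM21 on GRCm38, with Ctgf matched through its newer symbol. Alternatives were DESeq2 1.42.0, limma 3.58.1 with quality weights, other scaling, no filter, a Myl7 covariate, other atrial measures and leaving out libraries. Scripts were tested on simulated data. Depth, 17263209 to 51556592 counts per library, limits low genes such as Tnc (24 to 152 counts). Named genes were all members, Hk2, the atrial markers and, in each other matrix list, the 2 genes with the smallest p for the slope. The members and lists were chosen with earlier results of these data known.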

Additional observations from a re-analysis of the deposited data

Results flagged for a closer look

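Within each genotype, the highest or lowest library was set apart from the rest by a gap large against the whole range, a criterion that chance alone meets in about 1 of 20 groups. There were 80 groups of 6 libraries, 40 per genotype. HKII+/- replicate 11 was set apart for 27 of 40 members and HKII+/+ replicate 13 for 20 of 40, the libraries the submitters had marked. In groups of 5, without the marked libraries, 1 of 80 was set apart, Fbn1 in HKII+/- replicate 16 at 117 CPM.

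Among the collagens HKII+/- replicate 11 stood apart at 3659 CPM for Col1a1, 2540 for Col1a2, 6294 for Col3a1, 1030.0 for Col5a1, 511 for Col5a2, 4869 for Col4a1, 3507 for Col4a2, 722 for Col15a1, 269.5 for Col18a1, 1289 for Col6a1, 730.5 for Col6a2, 313 for Col6a3 and 109 for Col14a1. HKII+/+ replicate 13 stood apart at 1113 CPM for Col1a1, 910.4 for Col1a2, 1757 for Col3a1, 463 for Col5a1, 216 for Col5a2, 2991 for Col4a1, 2284 for Col4a2, 375 for Col15a1, 491 for Col6a1, 374 for Col6a2 and 165 for Col6a3.

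Among the other members HKII+/- replicate 11 stood apart at 2108 CPM for Eln, 176 for Fbn1, 8.21 for Mfap5, 99.5 for Loxl1, 78.0 for Dcn, 3.40 for Lum, 844 for Sparc, 989.5 for Ctgf, 6.46 for Tnc, 107.5 for Mmp2, 45.9 for Mmp14, 291 for Pi16, 62.3 for Tgfb1 and 6.51 for Tgfb2. HKII+/+ replicate 13 stood apart at 488 CPM for Eln, 7.67 for Mfap5, 6.36 for Loxl2, 104.5 for Dcn, 6.16 for Lum, 204 for Timp3, 164 for Pi16, 45.8 for Tgfb1 and 5.12 for Tgfb2.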

How the results depend on the processing

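No paired analysis was possible because no replicate number is used in both genotypes. Over 12 libraries, limma with quality weights called 2 genes and put 10 members higher, with Col3a1 at -0.090, Col18a1 at -0.20, Col6a1 at -0.073 and Eln at -0.33; with Myl7 as covariate Lox was at 0.0082. Leaving out 1 library at a time put 15 (without HKII+/- replicate 11) to 37 members higher, with log2 fold changes of -0.89 to 2.00 (Col3a1), -0.46 to 0.92 (Col18a1), -0.62 to 1.36 (Col6a1), -0.95 to 1.83 (Eln), -0.29 to 0.041 (Lox), -0.28 to 0.11 (Bgn), -0.33 to 0.63 (Pi16) and -0.14 to 0.36 (Tgfb1).

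Over 10 libraries, DESeq2 called 3 genes, limma put 10 members higher, and the Myl7 covariate put 28 higher, with Col3a1 at 0.065, Col14a1 at 0.12, Lox at 0.046, Fmod at 0.034 and Timp1 at 0.014. Leaving out 1 library gave 0 to 2 genes called, 4 to 23 members higher, -0.21 to 0.031 for Col3a1 and -0.22 to 0.047 for Col14a1. Hk2 was not called without HKII+/- replicate 12, 16, 19 or 20 or HKII+/+ replicate 15, 17 or 18.

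For the slope, members called were 17 with DESeq2, 17 with the mean of 4 atrial markers, 0 (66 genes, median 0.059) with all 12 libraries, 0 (12 genes, median 0.10) without both hearts lowest in Myl7, and 5 (133 genes) with Bmp10. Slopes that changed sign were 0.0040 (Col4a1), 0.0084 (Loxl2) and 0.00089 (Thbs1) on library totals; -0.00072 (Col6a3) and 0.0013 (Loxl2) without genotype; 0.12 (Col4a1), 0.10 (Col4a2) and 0.034 (Tnc) with 12 libraries; 0.062 (Col4a1), 0.054 (Col4a2), -0.0074 (Mfap5), -0.0086 (Bgn), -0.14 (Postn), 0.020 (Thbs1), -0.094 (Timp1), -0.071 (Timp3) and -0.10 (Tgfb2) without both hearts; and 0.00079 (Col4a1), 0.0032 (Loxl2), 0.0068 (Thbs1), 0.021 (Tnc) and -0.00093 (Tgfb1) with Bmp10. Leaving out 1 library gave 207 to 1517 genes and 2 to 16 members called, medians of 0.035 to 0.053, and slopes of -0.013 to 0.0084 (Col4a1), -0.0017 to 0.026 (Col6a3), -0.022 to 0.0063 (Loxl2), -0.020 to 0.00070 (Thbs1) and -0.054 to 0.063 (Tnc). The cause of these changes was not tested beyond the libraries left out. The 6 libraries per genotype and the marked libraries limit what the genotype fits can show.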
